A study of Mus musculus with 24 samples.

Results

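The vascular genes examined were 10 members of the VEGF and angiopoietin systems and of the endothelial cell surface: the ligands Vegfa, Vegfc, Angpt1 and Angpt2, the receptors Flt1, Kdr, Tek and Eng, and the junction proteins Cdh5 and Pecam1. Members were the genes whose name in the array files was one of these 10, read from non-control probes. They had 14 probes, of which 13 passed the signal filter, and all 10 members were among the 20938 genes tested, out of 30119 gene names on the arrays. The rule used gene names alone and no measured value.

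The samples were 24 mammary tumors of BALB/c mice, all induced with the carcinogen DMBA, and total RNA of each tumor was hybridized on its own Agilent array beside a common mouse reference RNA pooled from cell lines. LFD is a low-fat diet and HFD a high-fat diet rich in saturated animal fat. There were 5 LFD tumors, all of late onset, 3 HFD tumors of early and 6 of late onset, 4 LFD-HFD tumors, all late, from mice that were moved from LFD to HFD in adulthood, and 3 early and 3 late HFD-LFD tumors from mice moved the other way. No group was free of DMBA and no normal mammary gland was on the arrays. The labels do not give the animal of each tumor, so p-values measure the spread between tumors.

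VEGF-A is the main signal for vessel growth. It acts on endothelial cells mostly through VEGFR2, the product of Kdr, while VEGFR1, the product of Flt1, binds VEGF-A tightly and signals weakly, so that it can act as a trap. VEGF-C acts on VEGFR3 and drives lymphatic growth. Angiopoietin 1, made by cells around the vessel, activates the receptor Tie2 (Tek) and keeps vessels quiet and tight, and angiopoietin 2, made by endothelial cells, mostly opposes it during remodelling. Endoglin (Eng) is a co-receptor of the TGF-beta and BMP family in endothelium, VE-cadherin (Cdh5) holds endothelial cells together at their junctions, and Pecam1 encodes CD31, the antigen most used to stain vessels. In mammary tumors new vessels grow in with the stroma, and the array measured RNA of the whole tumor. In such bulk RNA, fewer endothelial cells and less of an RNA per cell cannot be told apart.

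The promoters of the 4 receptors are shown because each of them had a difference, described below, that was called or close to the threshold. The ligands Angpt1 and Angpt2 had such differences too, and no promoter is shown for them. Each is the 250 bases before the start of the gene on its own strand, from the RefSeq table on GRCm38.p6, in which 6 of the 10 members were matched. Capitals mark AGGAAG read on either strand, a form of the core motif of the ETS factors, a family with endothelial members such as Erg and Fli1.
Flt1, chr5:147726012-147726261, minus strand: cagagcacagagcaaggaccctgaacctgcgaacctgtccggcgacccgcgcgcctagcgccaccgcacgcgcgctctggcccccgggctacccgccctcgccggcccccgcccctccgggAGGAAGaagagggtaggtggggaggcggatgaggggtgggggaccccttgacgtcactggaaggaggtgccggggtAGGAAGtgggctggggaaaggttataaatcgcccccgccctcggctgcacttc
Kdr, chr5:75978456-75978705, minus strand: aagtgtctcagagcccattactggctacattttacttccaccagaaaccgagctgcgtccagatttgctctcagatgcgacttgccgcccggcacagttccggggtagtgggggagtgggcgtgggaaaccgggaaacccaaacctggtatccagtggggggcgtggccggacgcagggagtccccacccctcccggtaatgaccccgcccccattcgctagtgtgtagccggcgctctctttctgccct
Eng, chr2:32646345-32646594, plus strand: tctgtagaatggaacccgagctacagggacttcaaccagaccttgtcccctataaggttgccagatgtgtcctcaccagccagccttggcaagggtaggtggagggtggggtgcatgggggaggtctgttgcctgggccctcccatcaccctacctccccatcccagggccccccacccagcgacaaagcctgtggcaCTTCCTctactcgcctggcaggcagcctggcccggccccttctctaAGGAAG
Tek, chr4:94739039-94739288, plus strand: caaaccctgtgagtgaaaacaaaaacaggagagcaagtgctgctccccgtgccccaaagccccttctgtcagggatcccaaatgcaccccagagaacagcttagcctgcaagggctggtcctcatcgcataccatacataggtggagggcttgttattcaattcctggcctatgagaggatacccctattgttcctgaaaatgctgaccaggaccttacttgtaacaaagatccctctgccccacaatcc
The motif stood 2 times in the promoter of Flt1, at 129 and 53 bases before the start, and 2 times in that of Eng, at 52 and 6 bases before it. It was in 29.5% of the 32851 promoters of the table, and such a match describes letters and not a bound site. No copy lay in these windows of Kdr and Tek, which says only that these letters were not in them. Of the hypoxia-type motif GCGTG, held by 28.2% of promoters on either strand, Kdr had 2 copies, Flt1 had 1, and Eng and Tek had 0.

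Values are log2 ratios of tumor over reference, so a value of -1 means a tumor signal at 0.5 of the reference signal, and a value can be set against other tumors but not against another probe. The direction opposes the study's methods text, which puts the reference in Cy5, while the labels put the tumor there. The channels settled it. Over 16290 probes the SD across arrays had a median of 0.62 in Cy5 and 0.27 in Cy3, and the Y-linked Ddx3y gave at most 16.1 intensity units in Cy5 and at least 467 in Cy3 on every array. On 7 arrays, those of slides 6 and 7, 16.9 to 22.9% of spots lay in rows where Cy5 was dimmed, and values there were left missing. For this reason Pecam1 and Kdr had no value in LFD late tumor 4, LFD-HFD late tumor 1 and HFD late tumors 5 and 6. Of the 20938 genes tested, 8420 lacked a value on some array, through dimming or outlier flags. The 7 slides were scanned in 3 sessions. Early HFD tumors were in session 1 on a slide of their own. Early HFD-LFD tumors were in session 2 on a slide shared only with LFD-HFD late tumor 3. Of the 5 LFD tumors, 4 were in session 1, also on a slide of their own. Arrays give no read depth, and the number of tumors limits the precision.

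Endothelial RNA was measurable in the tumors. Of 7 defining markers, Pecam1, Cdh5, Kdr, Tie1 and Cldn5 exceeded the scanner's background threshold in Cy5 on all 24 arrays and Tek and Emcn on 23. The members differed in spread. Over all tumors the log2 ratio of Angpt1 ran from -1.66 to 1.71, that of Cdh5 from -2.80 to -0.46 and that of Tek from -2.34 to -0.03. Pecam1 had the narrowest range, -1.20 to 0.14 over 20 tumors.

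The ligands differed in how their group means were ordered (mean ± SD of the log2 ratio, with 5 LFD, 3 early HFD, 6 late HFD, 4 LFD-HFD, 3 early and 3 late HFD-LFD tumors unless said). Vegfa, measured at chr17:46154387-46154446 (mm9), was 0.71 ± 0.69 in early HFD, 0.60 ± 0.48 in LFD, 0.50 ± 0.90 in late HFD-LFD, 0.15 ± 0.24 in early HFD-LFD, 0.04 ± 0.89 in LFD-HFD and -0.09 ± 0.48 in late HFD tumors. Vegfc, at chr8:55271533-55271592, was 0.26 ± 0.45 in early HFD-LFD, -0.04 ± 0.33 in LFD-HFD, -0.16 ± 0.36 in late HFD, -0.24 ± 0.34 in late HFD-LFD, -0.31 ± 0.47 in LFD and -0.45 ± 0.54 in early HFD tumors. For both, no neighbours in the order differed by more than the larger of their SDs. Angpt1, at chr15:42256335-42256394, was 1.35 ± 0.37 in LFD-HFD, 0.63 ± 0.56 in late HFD-LFD, 0.06 ± 1.16 in late HFD, -0.29 ± 0.65 in LFD, -0.76 ± 0.32 in early HFD and -0.87 ± 0.19 in early HFD-LFD tumors, and LFD-HFD alone stood above its neighbour by more than that. Angpt2, at chr8:18691458-18691517, was 0.30 ± 0.52 in LFD tumors, which stood above their neighbour, and between -0.48 ± 0.68 (late HFD) and -0.84 ± 0.42 (late HFD-LFD) in the others, which did not differ beyond their spread.

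Among the receptors, Kdr, at chr5:76330395-76330454, ran from -0.07 ± 0.50 in late HFD-LFD tumors through -0.42 ± 0.28 in LFD-HFD (n = 3), -0.48 ± 0.54 in late HFD (n = 4), -0.63 ± 0.11 in early HFD-LFD and -0.82 ± 0.36 in LFD (n = 4) to -1.38 ± 0.34 in early HFD tumors, and the early HFD tumors stood apart from their neighbour. Eng, at chr2:32537268-32537327, was highest in late HFD tumors, at -0.51 ± 0.56, apart from the next group, while the other 5 groups lay between -1.18 ± 0.37 (LFD-HFD) and -1.65 ± 0.33 (early HFD). Tek, at chr4:94540624-94540683, was -0.61 ± 0.15 in early HFD, -0.93 ± 0.63 in late HFD, -1.14 ± 0.25 in LFD, -1.69 ± 0.35 in LFD-HFD, -1.91 ± 0.05 in late HFD-LFD and -2.20 ± 0.13 in early HFD-LFD tumors. For Tek the steps from LFD to LFD-HFD and from late to early HFD-LFD were larger than the SDs. Of the junction genes, Cdh5, at chr8:106668159-106668218, ran from -1.41 ± 0.57 in LFD to -2.15 ± 0.47 in early HFD-LFD tumors with no step beyond the spread. Pecam1, at chr11:106540864-106540923, ran from -0.34 ± 0.16 in early HFD to -1.06 ± 0.13 in early HFD-LFD tumors, and only the last of these lay beyond the SDs of its neighbour, late HFD-LFD at -0.79 ± 0.15.

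**Figure D1:**
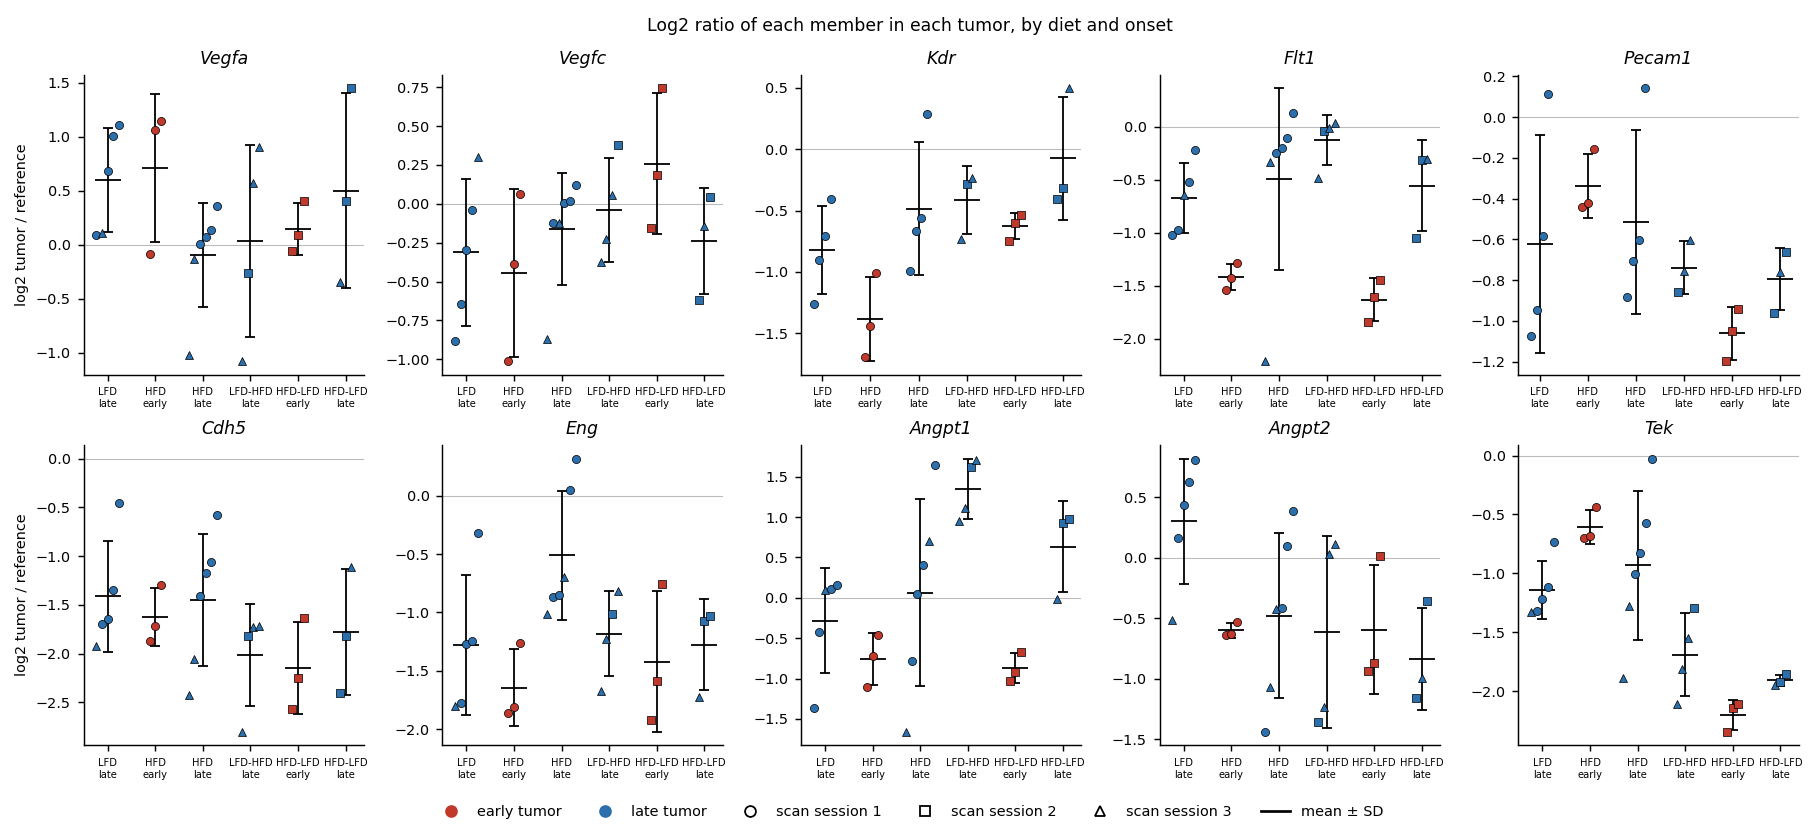
Log2 ratio of tumor over reference for each of the 10 genes (panels) in each tumor, by diet and onset on the horizontal axis, with early tumors red, late tumors blue, marker shape for scan session and black bars for mean and SD. Early tumors lay low for Flt1 and Angpt1, and HFD-LFD tumors lay low for Tek.

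To ask which vascular genes differ with latency, the 6 early tumors were compared with the 18 late tumors over all diets. No LFD or LFD-HFD tumor was early and the fit held no diet term, so onset and diet cannot be fully told apart in this comparison. Among the 10 members, 2 were lower in early tumors, the receptor Flt1 and the ligand Angpt1, and none was higher. A gene is called here when its adjusted p (limma, Benjamini-Hochberg over 20938 genes) is under 0.05, and 17.7% of all genes were called in this comparison, 11% lower and 6.76% higher. The 2 of 10 members is thus near the background. The median difference of the members was -0.26, against -0.06 over all genes tested, and 8 of 10 lay below 0. At an unadjusted p under 0.05, 4 members and 33.7% of all genes passed.

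Flt1 gave the clearest onset difference. Its log2 ratio in the 6 early tumors was lowest at -1.85, with a median of -1.49 and a highest value of -1.29. In the 18 late tumors the lowest was -2.21, the median -0.31 and the highest 0.13. All early tumors thus lay below every late tumor except HFD late tumor 6, the one at -2.21. The means were -1.52 ± 0.19 (SD, n = 6) and -0.47 ± 0.56 (SD, n = 18), a difference of -1.05 (SE 0.23, 95% interval -1.52 to -0.58), or 2.07-fold lower, with an adjusted p of 0.00369 in limma. The 3 HFD early tumors, at -1.54, -1.43 and -1.29, and the 3 HFD-LFD early tumors, at -1.85, -1.61 and -1.44, came from different slides and scan sessions. Within session 1 the difference was -1.02 (limma adjusted p = 0.0316) and within session 2 it was -1.16 (limma adjusted p = 0.0435). Of the late groups, LFD-HFD had the highest Flt1 mean, -0.13 ± 0.24 (SD, n = 4), followed by late HFD at -0.49 ± 0.86 (SD, n = 6), late HFD-LFD at -0.56 ± 0.43 (SD, n = 3) and LFD at -0.68 ± 0.33 (SD, n = 5). Neighbours among these late groups differed by less than the larger of their SDs.

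Angpt1, the ligand that activates Tie2, was also lower in early tumors. The early tumors spanned -1.10 to -0.46 with a median of -0.82, and the late tumors spanned -1.66 to 1.71 with a median of 0.29. The groups overlapped, since LFD late tumor 3 at -1.36 and HFD late tumors 4 and 6 at -0.78 and -1.66 reached into or below the early range. The difference was -1.16 (SE 0.39, 95% interval -1.96 to -0.36), 2.24-fold lower, with a limma adjusted p of 0.0403. It was -0.74 within session 1 (limma adjusted p = 0.343) and -2.05 within session 2 (limma adjusted p = 0.00597). The call rested on few tumors. It was lost when any of the 6 early tumors, any of the 4 LFD-HFD tumors or HFD-LFD late tumor 1 or 2 was left out, with adjusted p of up to 0.0917 in limma, while the difference stayed between -1.28 and -1.08 with each of the 24 arrays left out in turn.

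The other ligands did not pass. Vegfa differed by 0.20 (SE 0.29, limma adjusted p = 0.661) between early and late tumors, Vegfc by 0.10 (SE 0.20, limma adjusted p = 0.759) and Angpt2 by -0.25 (SE 0.30, limma adjusted p = 0.586). Vegfa ranged from -0.08 to 1.14 in early tumors and from -1.08 to 1.45 in late tumors, so that the early range lay inside the late one. Among the receptors, Kdr differed by -0.53 (SE 0.22, limma adjusted p = 0.0985), with early tumors from -1.69 to -0.54 and 14 late tumors from -1.26 to 0.50. Eng also differed by -0.53 (SE 0.25, limma adjusted p = 0.142), with early tumors from -1.92 to -0.75 and late tumors from -1.80 to 0.32. Tek, at -0.08 (SE 0.29, limma adjusted p = 0.869), had the widest spread among early tumors, from -2.34 to -0.44. With array weights it was called lower, at -0.63 (limma adjusted p = 0.0403), and under median centring it was 0.12. The junction genes Pecam1 and Cdh5 differed by -0.05 (95% interval -0.42 to 0.33) and -0.27 (95% interval -0.81 to 0.27), intervals that hold both a rise and a fall.

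Onset was then compared within each diet that had early tumors. Within HFD, 3 early against 6 late tumors, 1 member was lower, Eng, where 13% of all genes were called, 7.28% lower and 5.75% higher. Eng was at -1.86, -1.81 and -1.26 in the 3 early tumors, and its lowest, median and highest values in the 6 late tumors were -1.02, -0.77 and 0.32. Every early tumor lay below every late tumor, and how many of all genes separate in this way was not counted for any comparison. The difference was -1.13 (SE 0.34, 95% interval -1.85 to -0.42), 2.19-fold lower, with a limma adjusted p of 0.0340. Without any 1 of the 3 early tumors, or without HFD late tumor 2 or 3, the limma adjusted p rose to between 0.0518 and 0.133, and it was 0.0613 within session 1. Under median centring Eng was at -0.64 (limma adjusted p = 0.247), and with slide as a random block, all 3 early HFD tumors being on 1 slide, the limma adjusted p was 0.117.

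Kdr and Flt1 stood next to Eng within HFD. Kdr was at -1.69, -1.44 and -1.01 in the early tumors and at -0.99, -0.67, -0.56 and 0.29 in the 4 late tumors that had a value. By this probe the groups did not overlap, and the difference was -0.90 (SE 0.29, limma adjusted p = 0.0501). By a second passing Kdr probe, with a value in all 6 late tumors, the groups did overlap. There 0 of the 3 early tumors lay below every late tumor, and 3 lay below the late median. The Kdr difference was -0.19 under median centring (limma adjusted p = 0.635), -0.49 with the dimmed rows kept (limma adjusted p = 0.448) and -0.58 with the probes averaged (limma adjusted p = 0.321). Flt1 differed by -0.92 (SE 0.35, limma adjusted p = 0.0796). HFD late tumor 6 decided that value: without it Flt1 differed by -1.27 with a limma adjusted p of 0.000623. Angpt1, called over all diets, differed within HFD by -0.82 (SE 0.49, limma adjusted p = 0.271), and 0 of its early tumors lay below every late tumor. Vegfa lay in the other direction at 0.80 (SE 0.42, limma adjusted p = 0.207), with early tumors at -0.08, 1.07 and 1.14 and late tumors from -1.01 to 0.36.

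Within HFD-LFD, 3 early against 3 late tumors, no member was called, where 0.836% of all genes were. By limma at an unadjusted p under 0.05, 2 members passed, Flt1 and Angpt1, where 15.5% of all genes did. Flt1 was at -1.85, -1.61 and -1.44 in early and -1.05, -0.31 and -0.31 in late tumors, a difference of -1.08 (SE 0.40, limma adjusted p = 0.200). Angpt1 was at -1.03, -0.92 and -0.67 in early and -0.02, 0.93 and 0.98 in late tumors, a difference of -1.50 (SE 0.57, limma adjusted p = 0.207). Neither pair of groups overlapped, nor did those of Kdr and Tek, whose 3 early tumors also lay below every late tumor. The share of all genes that separate in this way was not counted. Within session 2 alone, without HFD-LFD late tumor 3, Angpt1 differed by -1.83 with a limma adjusted p of 0.00653. The early HFD-LFD tumors were all on slide 4 and the late ones on slides 5 and 7. Slide and onset thus cannot be told apart within this diet, in session 2 alone or in both sessions. The difference between the onset changes of HFD and HFD-LFD was not called for any member, nor for any of the 20938 genes (0%). At an unadjusted p under 0.05 it passed for 0 members and 8.06% of genes in limma, and the lowest unadjusted p among members was 0.0726, for Eng, at -0.99 (95% interval -2.08 to 0.10).

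**Figure D2:**
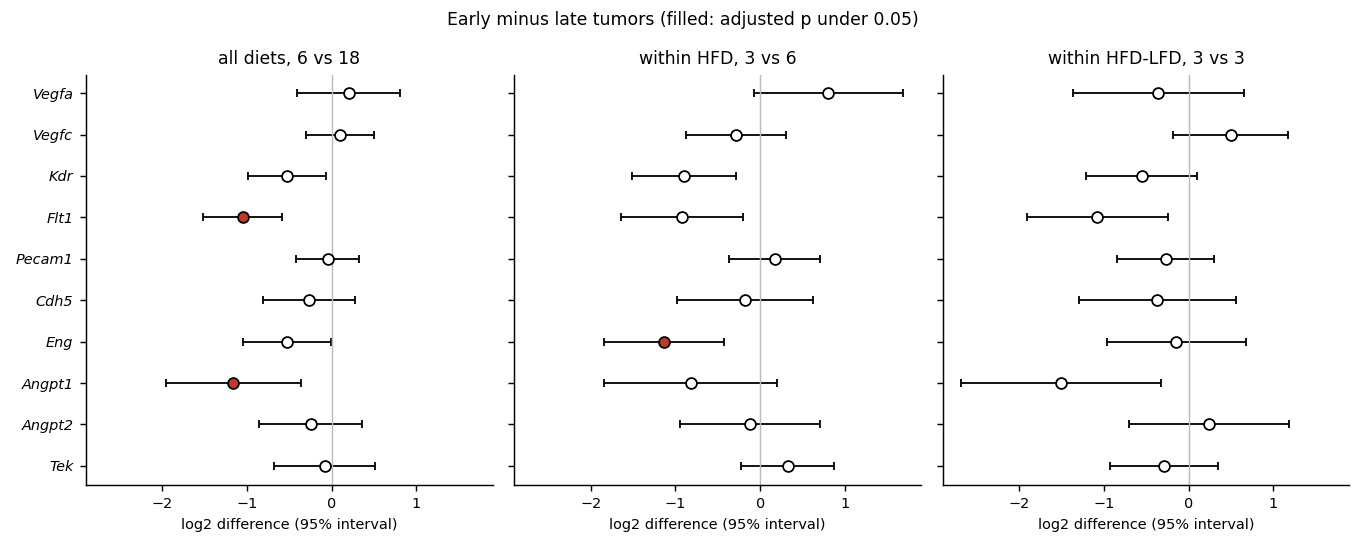
Log2 difference of early minus late tumors for the 10 genes, over all diets, within HFD and within HFD-LFD, with 95% intervals from limma. Filled points have an adjusted p under 0.05: Flt1 and Angpt1 over all diets and Eng within HFD, all to the left of 0.

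Other endothelial genes were read beside the members. Of 30 further genes of endothelium on a list, 29 were tested, and 14 were lower and 0 higher in early tumors, with a median difference of -0.58 against -0.06 over all genes, of which 11% were lower. The 4 with the smallest p were Acvrl1, the ALK1 receptor that acts with endoglin, at -0.91 (SE 0.17, limma adjusted p = 0.00141), Sox17, a factor of arterial endothelium, at -1.06 (SE 0.24, limma adjusted p = 0.00448), Nos3, endothelial nitric oxide synthase, at -1.09 (SE 0.24, limma adjusted p = 0.00496), and Vwf, von Willebrand factor, at -2.66 (SE 0.62, limma adjusted p = 0.0061). The 6 early tumors averaged -2.95 ± 0.46 (SD) for Vwf, and the 18 late tumors -0.30 ± 1.56 (SD). Nos3 had a value in 14 of the late tumors. The other 10 that were lower were Cd34, Icam2, Tal1, Egfl7, Ecscr, Gpihbp1, Plvap, Cldn5, Fli1 and Cd93. The list was not uniform, for Tie1 differed by -0.08 (limma adjusted p = 0.875) and the factor Erg by 0.00 (limma adjusted p = 0.997). Cdh5 and Pecam1, the members most used as endothelial markers, thus lay nearer to 0 than the median of this list.

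The count of lower endothelial genes moved with the processing more than its direction did. It was 3 under median centring of each array, 2 within session 1 and 7 within session 2, 8 with slide as a random block or from the tumor channel alone, 22 with the background fitted on all spots, 8 without HFD early tumor 2 and 9 without HFD-LFD early tumor 1. The share of all genes called, in either direction, moved too. In the same order it was 24.4%, 7.33%, 11.8%, 8.1%, 11.9%, 23.2%, 9.89% and 14.2%. Under median centring 81.1% of the called genes were higher. The number with a difference below 0 stayed between 24 and 29 of the genes tested under every alternative. The mean log2 ratio over the 29 genes was -1.77 to -1.35 in early tumors and -1.70 to -0.35 in late tumors. Within HFD 13 of the 29 genes were lower, where 7.28% of all genes were. The count was 4 to 8 when 1 of the 3 early tumors was left out. Then 4.77% to 6.43% of all genes were called, in either direction. Within HFD-LFD 0 of the 29 were lower, with 28 of 29 below 0, where 0.339% of all genes were lower.

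**Figure D3:**
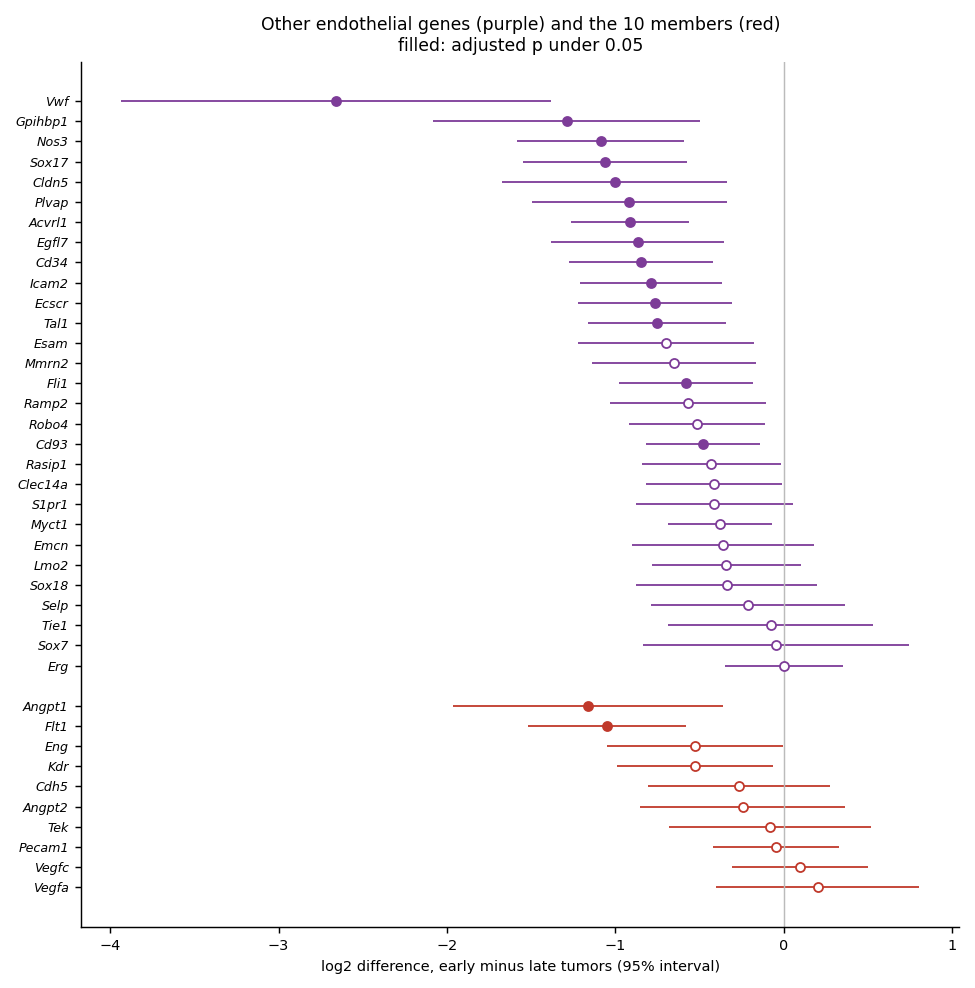
Log2 difference of early minus late tumors, with 95% intervals from limma, for 29 other endothelial genes (purple) and the 10 members (red), filled where the adjusted p was under 0.05. Of the purple points 28 lay left of 0 and 14 were filled, while Pecam1, Tek, Tie1 and Erg lay near 0.

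Lists of the pathways around the members were read against the 17.7% of all genes called between early and late tumors, and no list was tested against that share. Of 6 other VEGF ligands, receptors and co-receptors 0 were called, and the 2 with the smallest p were the ligand Pgf at -0.75 (SE 0.33, limma adjusted p = 0.109) and the VEGF-C receptor Flt4 at -0.28 (SE 0.12, limma adjusted p = 0.112). Of 7 other angiopoietin and Tie genes 1 was lower, Ptprb, the phosphatase that acts on Tie2, at -1.14 (SE 0.23, limma adjusted p = 0.00327), and the count was 2 without HFD late tumor 4 or 6 and 3 without LFD late tumor 3. Of 10 pericyte genes 1 was lower, Higd1b at -0.69 (SE 0.19, limma adjusted p = 0.0165). Of 9 genes of sprouting tip cells 1 was higher, the chemokine receptor Cxcr4 at 0.70 (SE 0.16, limma adjusted p = 0.00614), and of 5 lymphatic genes 1 was higher, the integrin Itga9 at 1.26 (SE 0.20, limma adjusted p = 0.00041). Both of these genes are also expressed by cells other than endothelium. Of 10 inhibitors of angiogenesis 1 was higher, Vash2 at 1.50 (SE 0.27, limma adjusted p = 0.00108), a family member known to act for rather than against vessel growth, and 2 were lower, Vash1, which endothelium makes, at -0.62 (SE 0.18, limma adjusted p = 0.0229) and the chemokine Cxcl10 at -1.0 (SE 0.35, limma adjusted p = 0.0471). Of 20 hypoxia response genes 3 were lower and 0 higher, Epas1 at -1.39 (SE 0.34, limma adjusted p = 0.0085), Aldoa at -0.85 and Vhl at -0.47. Epas1 encodes HIF-2alpha, which endothelium also expresses. Ptprb, Vash1, Aldoa and Vhl had a value in 14 of the 18 late tumors, and Higd1b in 15. Single tumors moved other counts of these lists: 1 VEGF gene was lower without HFD early tumor 1 or HFD late tumor 4, and 1 tip cell gene was lower without HFD early tumor 1, HFD late tumor 4 or 6 or LFD late tumor 3. Besides, 1 hypoxia gene was higher without HFD-LFD late tumor 1 or LFD late tumor 3. Of the inhibitors 1 and not 2 was lower when 1 of these tumors was left out: an early tumor other than HFD-LFD early tumor 1, an LFD-HFD tumor, HFD-LFD late tumor 1 or 2, HFD late tumor 2, 4 or 6, or LFD late tumor 2. The medians of these 7 lists ran from -0.28 for the lymphatic to 0.15 for the inhibitor list. Under median centring, which moved the median of all genes from -0.06 to 0.21, the medians of the VEGF, Tie, tip cell, pericyte and hypoxia lists turned positive, at 0.32, 0.08, 0.22, 0.14 and 0.16.

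Markers of other cells moved with onset too, and their part in the vascular differences was not tested. Of 8 luminal epithelial markers 3 were lower in early tumors (Prlr -3.94, Esr1 -1.32 and Krt19 -2.78), with a list median of -1.56 and a mean level of 0.06 to 2.56 in early and -1.48 to 3.40 in late tumors. The count was 6 without HFD late tumor 4, and 1 without HFD early tumor 2 or 3 or any HFD-LFD early tumor. All 9 squamous markers were above 0 with a median of 1.29, 0 of them called, and a mean level of -2.98 to 0.33 in early and -4.29 to 2.97 in late tumors. Of these 3 were called higher without HFD late tumor 4, and 1 without HFD late tumor 6, HFD-LFD late tumor 1 or LFD late tumor 3. Of 8 fibroblast markers 1 was lower, Dcn at -2.54, of 9 macrophage markers Cd14 at -1.36, and of 6 platelet markers Itgb3 at -1.12, with 2 lower without LFD late tumor 2 or 3. Dcn had a value in 15 of the late tumors. Of 6 adipocyte, 6 T and B cell and 6 skeletal muscle markers 0 were called, with medians of -0.88, -0.68 and -0.41. Of the T and B cell markers 3 were lower without HFD-LFD late tumor 2, 2 without LFD late tumor 3, and 1 without HFD-LFD early tumor 2, HFD-LFD late tumor 1, HFD late tumor 6 or LFD late tumor 2 or 4. All markers of these lists were well above background on at least 12 arrays except 1 platelet marker.

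The diets were compared next, each against the same 5 LFD tumors, so that these 3 comparisons are not independent of each other. HFD against LFD, 9 against 5 tumors, called 0 members and 0% of all genes. By limma at an unadjusted p under 0.05, 1 member and 4.5% of all genes passed. That member was Angpt2, the remodelling ligand. It was at -0.52, 0.16, 0.44, 0.62 and 0.81 in the LFD tumors, while in the 9 HFD tumors its lowest, median and highest values were -1.44, -0.53 and 0.38. All 9 HFD tumors lay below the LFD median and the ranges overlapped. The difference was -0.82 (SE 0.28, 95% interval -1.42 to -0.22, limma adjusted p = 0.958), and it was -0.96 within session 1, where 7 HFD and 4 LFD tumors were scanned. Those LFD tumors were all on slide 1 and those HFD tumors on slides 2 and 3, so the session 1 value compares slides as well as diets. The other members differed by -0.43 (Vegfa) to 0.39 (Eng), all with limma adjusted p of at least 0.958. With slide as a random block, 0 members, Angpt2 included, had an unadjusted limma p under 0.05 for HFD against LFD. Between late HFD and LFD tumors alone, 0 members and 0% of genes were called, while by limma at an unadjusted p under 0.05 2 members and 8.53% of genes passed. These were Eng, at 0.77 (SE 0.29, limma adjusted p = 0.462), and Angpt2, at -0.78 (SE 0.34, limma adjusted p = 0.540).

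HFD-LFD against LFD, 6 against 5 tumors, called 1 member, Tek, which was lower, where 6.82% of all genes were called, 3.29% lower and 3.54% higher. Tek, the receptor of both angiopoietins, was at -2.34, -2.15 and -2.11 in the early and at -1.94, -1.92 and -1.85 in the late HFD-LFD tumors. In the LFD tumors it was at -1.33, -1.32, -1.22, -1.12 and -0.73. Every HFD-LFD tumor lay below every LFD tumor, a split not counted over all genes. The difference was -0.91 (SE 0.23, 95% interval -1.38 to -0.44), 1.88-fold lower, with a limma adjusted p of 0.0227, and 0.0694 without LFD late tumor 2.

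The Tek difference ran together with the scan session. Of the HFD-LFD tumors 5 were scanned in session 2 and 1 in session 3, and of the LFD tumors 4 in session 1 and 1 in session 3. The 1 pair that shared a session had -1.94 in the HFD-LFD and -1.33 in the LFD tumor. With session as a block the difference was -0.61 (limma adjusted p = 0.411). HFD late tumors were also lower in session 3, at -1.89 and -1.28, than in session 1, where they ran from -1.0 to -0.03. The Tek probe was dim, with a median background-subtracted signal of 190 units in the tumor and 283 in the reference channel. From the tumor channel alone, without the reference, the difference turned to 0.38 (limma adjusted p = 0.488).

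Angpt2 was again lower in the HFD-LFD tumors. Its values were -0.94, -0.87 and 0.02 in early and -1.16, -1.0 and -0.36 in late HFD-LFD tumors, against the LFD values given above. The difference was -1.02 (SE 0.34, 95% interval -1.72 to -0.32, limma adjusted p = 0.0700). It was -1.22 without LFD late tumor 4 (limma adjusted p = 0.0256) and -0.17 with session as a block (limma adjusted p = 0.931). Kdr lay higher at 0.47 (SE 0.24, limma adjusted p = 0.252) by ratio but at -1.07 from the tumor channel alone, and Cdh5 lay lower at -0.55 (SE 0.33, limma adjusted p = 0.314). The remaining 6 members lay between -0.42 (Flt1) and 0.32 (Vegfc). With the 3 late HFD-LFD tumors alone against LFD, 0 members were called, where 2.41% of genes were (1.24% higher and 1.17% lower), and by limma 3 members and 17.2% of genes had an unadjusted p under 0.05. These were Angpt2 at -1.14 (limma adjusted p = 0.139), Tek at -0.76 (limma adjusted p = 0.140) and Kdr at 0.74 (limma adjusted p = 0.190).

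LFD-HFD against LFD, 4 against 5 late tumors, called 0 members, where 1.72% of all genes were called (1.03% higher), and by limma at an unadjusted p under 0.05 3 members and 18.7% of genes passed. Angpt1 differed most. It was at 0.95, 1.12, 1.63 and 1.71 in the LFD-HFD tumors and at -1.36, -0.43, 0.09, 0.11 and 0.16 in the LFD tumors. These groups did not overlap, a split not counted over all genes. The difference was 1.63 (SE 0.47, 95% interval 0.67 to 2.60), 3.11-fold higher, with a limma adjusted p of 0.0700, and 0.0476 without LFD late tumor 4. In session 3 the 3 LFD-HFD tumors were at 0.95, 1.12 and 1.71 and the 1 LFD tumor at 0.09, and with 1 LFD tumor no p-value is given. Angpt2 lay in the other direction at -0.92 (SE 0.37, limma adjusted p = 0.187), with LFD-HFD tumors at -1.36, -1.23, 0.03 and 0.11, and Tek at -0.55 (SE 0.25, limma adjusted p = 0.246). Most of these tumors too were scanned in different sessions. With session as a block Angpt2 was at -0.31 (limma adjusted p = 0.783) and Tek at -0.06 (limma adjusted p = 0.929), while Angpt1 was at 1.73 (limma adjusted p = 0.136). In session 3 alone, against 1 LFD tumor, Angpt2 was 0.15 higher, and from the tumor channel alone Tek was at 0.37 (limma adjusted p = 0.661). Adipocyte markers moved with the same groups: all 6 were above 0, 0 of them called, with a median of 1.90 and a mean level of -2.22 to 1.33 in LFD-HFD and -4.16 to -1.52 in LFD tumors, and their part in the Angpt1 difference was not tested.

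**Figure D4:**
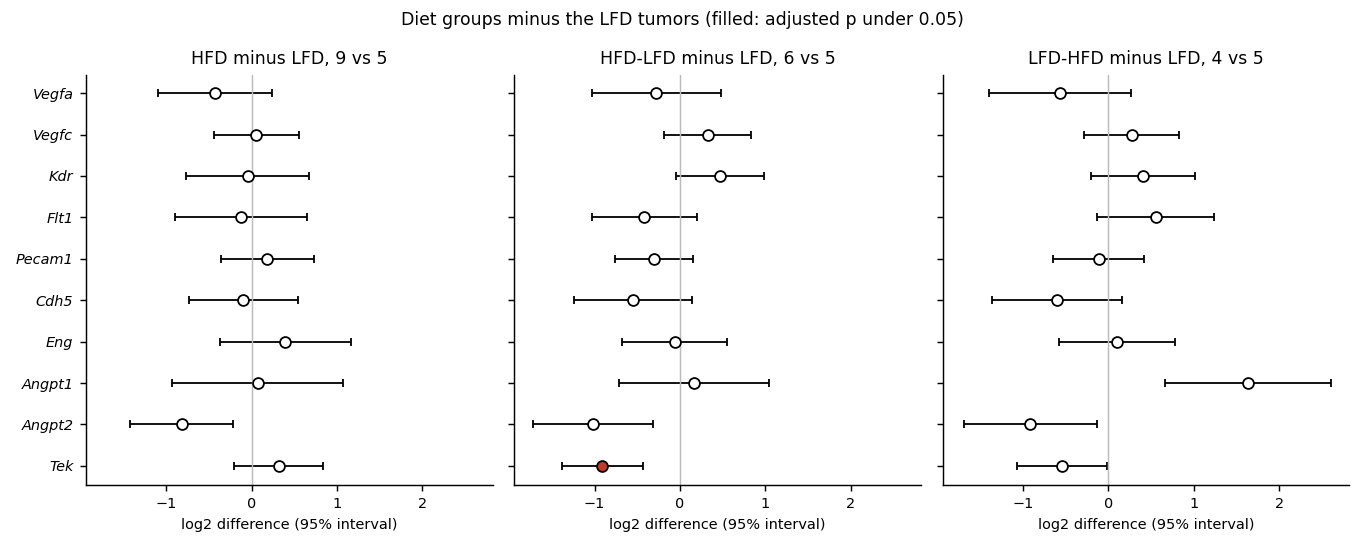
Log2 difference of the HFD, HFD-LFD and LFD-HFD tumors from the same LFD tumors for the 10 genes, with 95% intervals from limma, filled where the adjusted p was under 0.05. Tek in HFD-LFD tumors is the only filled point, Angpt2 lies left of 0 in all 3 panels and Angpt1 lies far to the right in LFD-HFD tumors.

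For Vegfa, Kdr and Flt1 there was a second passing probe, and the brighter of each pair stands for the gene above. Probe positions are on mm9, and whether they fall in coding or untranslated sequence was not examined here. The pair of Flt1, at chr5:148373791-148373850 and chr5:148446872-148446931, varied together over 24 tumors with r = 0.79 (permutation p = 2e-05, adjusted over the 3 pairs 6e-05) and rho = 0.73 (permutation p = 9e-05, adjusted 0.00027), and r = 0.70 without the 2 most distant tumors. Here and below, the 2 most distant tumors are those farthest from the median of the gene or probe named first. The second Flt1 probe gave an onset difference of -0.86 (SE 0.23, limma adjusted p = 0.0128), beside -1.05 for the first. Another Flt1 probe, at chr5:148465976-148466035, was well above background in 10 of 24 tumors and in no reference and did not pass.

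The pair of Vegfa did not give one answer. The probes lie at chr17:46154387-46154446 and chr17:46162376-46162435, and over 20 tumors they had r = 0.60 (permutation p = 0.0052, adjusted 0.0078) and rho = 0.52 (permutation p = 0.0183, adjusted 0.0274), with r = 0.41 without the 2 most distant tumors. For early against late the first probe gave 0.20 and the second -0.77 (SE 0.39, limma adjusted p = 0.177), and for HFD against LFD they gave -0.43 and -0.99 (limma adjusted p = 0.963 for each). By the second probe all 6 early tumors, from -1.71 to -0.28, lay below the late median of 0.07. The pair of Kdr, at chr5:76330395-76330454 and chr5:76329309-76329368, had r = 0.38 over 20 tumors (permutation p = 0.103, adjusted 0.103) and rho = 0.36 (permutation p = 0.123, adjusted 0.123). Both Kdr probes lay lower in early tumors, -0.53 and -0.51, without passing, and for HFD-LFD against LFD they gave 0.47 and -0.11.

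**Figure D5:**
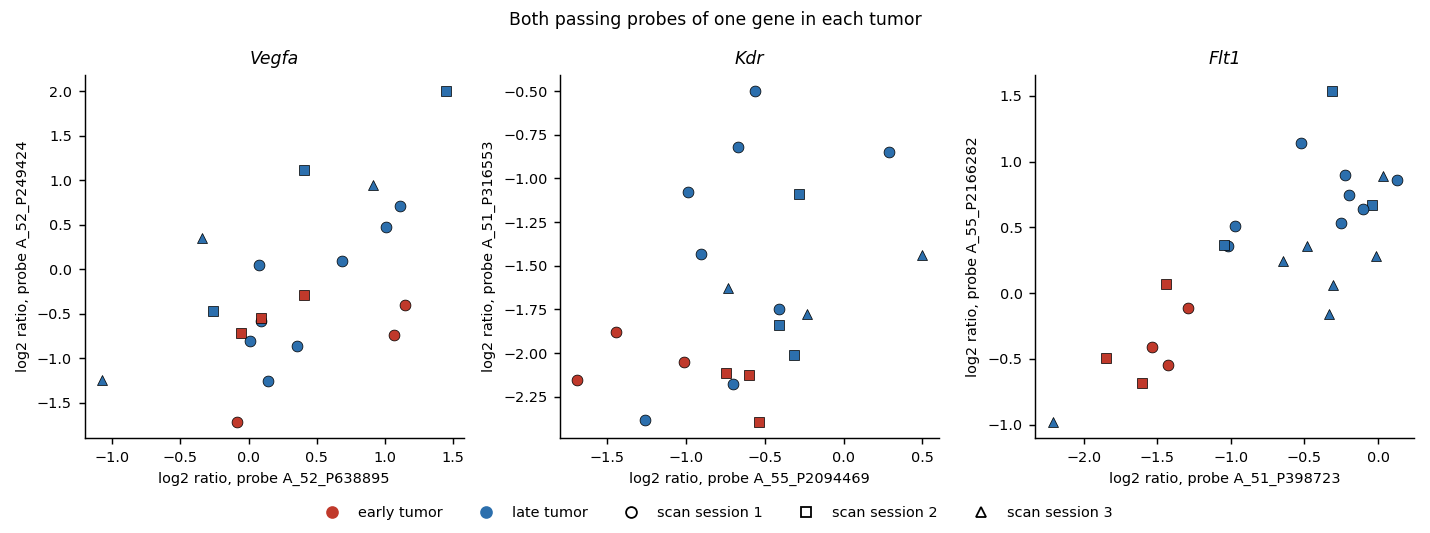
Log2 ratio of tumor over reference by the probe that stands for the gene (horizontal) and by the other passing probe (vertical) for Vegfa, Kdr and Flt1, 1 point for each tumor, red for early and blue for late, with marker shape for scan session. The Flt1 points follow a line (r = 0.79 over 24 tumors) and the Kdr points scatter (r = 0.38 over 20 tumors).

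Whether the members rose and fell together over tumors was asked for all 45 pairs. Pearson's r lay between -0.55 and 0.72, its median was 0.15, and 32 pairs were above 0. Over all tumors 2 pairs passed by both r and rho after adjustment over 45. Flt1 and Angpt1 had r = 0.72 (permutation, adjusted p = 0.00495) and rho = 0.67 (permutation, adjusted p = 0.0158) over 24 tumors, with r = 0.67 without the 2 most distant tumors. Both genes were lower in early tumors, and in the 18 late tumors alone r was 0.61 (permutation, adjusted p = 0.134). Within sessions 1, 2 and 3 their r was 0.58, 0.90 and 0.90. Pecam1 and Tek had r = 0.71 (permutation, adjusted p = 0.00765) and rho = 0.71 (permutation, adjusted p = 0.0173) over 20 tumors, with r = 0.62 without the 2 most distant, and r was 0.72 within session 1 and 0.45 within session 2. In the 14 late tumors r was 0.58 (permutation, adjusted p = 0.185). It was 0.01 without the 2 late tumors farthest from the Pecam1 median, so that in late tumors it rested on those. Cdh5 and Tek passed by r alone, at 0.60 (permutation, adjusted p = 0.0261), and within sessions 1 to 3, of 11, 6 and 7 tumors, r was 0.26, 0.18 and -0.02. In the 18 late tumors it was 0.68 (permutation, adjusted p = 0.081), the highest of the late pairs, with 0.58 without the 2 most distant, and it was 0.56 in the 8 late tumors of session 1 and -0.02 in the 7 of session 3. Kdr and Pecam1 passed by rho alone and in the other direction, at -0.64 (permutation, adjusted p = 0.0465). Their r over 20 tumors was -0.49 (permutation, adjusted p = 0.157), and -0.54 without the 2 most distant. It was -0.49 within session 1 and 0.44 within session 2. In the 14 late tumors their rho was -0.69 (permutation, adjusted p = 0.1545). In the late tumors 0 of the 45 pairs passed.

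The genes whose pattern over the 24 tumors was most like that of a member were named from 12518 genes with a value on every array, by Pearson's r, as a description with tumors that share slides and reference. For Cdh5 they were Lrp1 (0.88), the pericyte channel gene Abcc9 (0.88), the basement membrane gene Nid2 (0.82), Ptprn (0.82) and the myeloid factor Irf8 (0.81). For Vegfa the first 2 were an unnamed probe, A_55_P2097048 (0.79), and the transcript AK203298 (0.77), followed by the glycolytic enzyme Tpi1 (0.76), the hypoxia-induced prolyl hydroxylase Egln3 (0.73) and 1600014C23Rik (0.72). For Angpt2 they were Mkrn2 (0.71), the probes NAP092202-001 (0.69) and NAP102468-1 (0.68), Plppr2 (0.66) and the tip cell gene Esm1 (0.65).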

How the data were processed

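Each of 24 tumors was measured on 1 Agilent 2-color array, with tumor RNA in Cy5 and reference RNA in Cy3 per the labels. The intensity values deposited by the authors are the scanner software's mean spot brightness, median local background and background-subtracted signal in each dye, not normalized between dyes. The deposited log10 ratio of Cy5 over Cy3 had been normalized for dye by that software and was used as an alternative. The software was Agilent Feature Extraction, version 11.0.1.1 in the file headers and 8.5.1.1 in the submitters' processing notes. Positions are on mm9, from the files.

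The analysis used limma 3.58.1 in R 4.3.3. The normexp background model (offset 50) was fitted after outlier-flagged spots had been removed. Bands of 10 rows of spots with a median log2 Cy5/Cy3 more than 0.5 below that of the array were taken as dimmed and left missing, as were spots flagged as outliers. Ratios were normalized by loess within arrays and spots of 1 probe averaged. A probe was kept where its signal exceeded 10 in each dye on 80% of the arrays or more (27276 of 39429), and the brightest of them stood for a gene, which left 20938 genes. Accessions gave 27234 probes a RefSeq gene name, current symbols 3576 and synonyms 565, and the other 8054 probes stayed under their deposited name. Members were taken by the name in the files.

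Comparisons were limma fits with a Benjamini-Hochberg adjusted p under 0.05 over all genes: early against late on 24 arrays, HFD against LFD on 14, and the others as contrasts of 6 group means on 24. Group means weighted early and late HFD-LFD tumors equally. The members, lists and tests were chosen with earlier results of these data known. The text names all members, of each gene list at most 4 genes, those called for early against late by rising p, or else 2, and the 5 genes most like Cdh5, Vegfa and Angpt2. Others named in the lists were chosen after their values were seen. Scripts were tested on simulated data. Correlations used 100000 permutations, 2-sided. The alternatives were other background corrections, normalizations, filters, imputation, probe averaging, the tumor channel alone, slide and scan session as blocks or sessions alone, array weights, subsets of tumors and each array left out. Added after seeing the data were outlier-flagged spots kept, session 3 alone and each probe as its own feature.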

Additional observations from a re-analysis of the deposited data

Results flagged for a closer look

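In each group of 4 to 10 tumors, 28 combinations of member and group in all, the highest or lowest tumor was compared with its nearest neighbour, the gap being divided by the range of the group. In 5 of them the gap passed the 95% critical value for the group size, where chance gives about 1 in 20, or 1.4 of 28. All 5 were low values from arrays of slide 6, scanned in session 3.

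Cdh5 in LFD-HFD late tumor 1 was at -2.80, with the nearest of the other 3 tumors at -1.81 (gap 0.909 of the range). Flt1 was low in the same tumor, at -0.48 against -0.04 (gap 0.844 of the range). Flt1 in HFD late tumor 6 was at -2.21, with the nearest of the other 5 tumors at -0.33 (gap 0.803 of the range). Vegfc was low in that tumor too, at -0.87 against -0.13 (gap 0.753 of the range). Vegfa in HFD late tumor 5 was at -1.01, against -0.13 for the nearest (gap 0.645 of the range).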

How the results depend on the processing

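No paired analysis was possible because the tumors carry replicate numbers only in accession order and no label ties tumors of different groups. For early against late, where 2 members were called, Flt1 was called under all 17 alternatives (-1.22 to -0.70, limma adjusted p 5.4e-06 to 0.0435) and with each of 24 arrays left out (-1.15 to -0.99). The count was 1, Flt1 alone, with the scanner log ratio, uncorrected background, median-centred arrays, Cy5 alone without the reference, no filter, slide as a random block or session 1 alone, and 1 to 2 with 1 array left out. It was 3 with array weights, where Tek was called too, at -0.63 (limma adjusted p = 0.0403). Angpt1 was called under 10 of 17 alternatives. For HFD-LFD against LFD (1 called) the count was 0 with the scanner log ratio, normexp on all spots, median centring, the tumor channel alone, slide or session as a block or late HFD-LFD tumors alone, 2 with array weights or without slides 6 and 7, and 0 to 2 with 1 array left out. In the tumor channel alone the Tek difference was reversed, 0.38. For LFD-HFD (0 called) it was 1, Angpt1, with array weights and 0 to 1 with 1 array left out. Within HFD (1 called) it was 0 with the scanner log ratio, median centring, the tumor channel alone or slide as a block, 2 with imputation, 3 with normexp on all spots, session as a block or without slides 6 and 7, 4 with array weights and 0 to 3 with 1 array left out. Within HFD-LFD (0 called) it was 1 in session 2 alone, 2 with array weights and 0 with 1 array left out. HFD against LFD and the difference of the onset changes gave 0 members under all alternatives run. Of 2008 differences of single members over these alternatives, 1837 kept direction and side of the threshold, 36 lost and 23 gained a call, 111 changed sign without a call and 1 was the reversed Tek value. Median centring moved the median of all genes from -0.06 to 0.21 for early against late, and the share of called genes that were higher from 38.2% to 81.1%. Flt1 was then at -0.70 (limma adjusted p = 0.0403) and Angpt1 at -0.96 (limma adjusted p = 0.103), while Kdr and Eng were at -0.09 and -0.13. That share went under median centring from 44.1% to 89.2% within HFD, from 59.4% to 93.6% within HFD-LFD, from 51.9% to 87.8% for HFD-LFD against LFD and from 60% to 93.8% for LFD-HFD against LFD. In the tumor channel alone it was 57.6% for early against late, 65.6% and 84.5% within the 2 diets and 20.9% for LFD-HFD. Over all genes the number called ran from 1535 (session 1 alone) to 7692 (array weights) for early against late, beside 3711 as reported. It ran from 533 to 9050 within HFD (2729), from 33 to 2452 within HFD-LFD (175), from 140 to 5236 for HFD-LFD against LFD (1429), from 5 to 1943 for LFD-HFD against LFD (360), from 0 to 3 for HFD against LFD (0) and from 0 to 711 for the difference of the onset changes (0). The cause of these changes was not tested. With 3 early tumors in each diet and early tumors on 2 slides, slide and onset cannot be told apart within session 1. The same holds within HFD and within HFD-LFD, where no slide held both early and late tumors.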

Other observations

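On the diet side, 6.82% of all genes were called in HFD-LFD tumors against LFD. On the endothelial list 2 of 29 genes were called, Emcn and Erg, near that share. Of 5 lymphatic genes 2 were called lower, Flt4 and Reln, and of 6 other VEGF genes 1, Flt4 again. No list was tested against that share. Emcn, the sialomucin endomucin of venous and capillary endothelium, was lower by -0.97 (SE 0.23, limma adjusted p = 0.0229), the VEGF-C receptor Flt4 by -0.49 (SE 0.12, limma adjusted p = 0.0231) and Reln, reelin, which lymphatic endothelium makes, by -1.07 (SE 0.31, limma adjusted p = 0.0415). Erg, a factor of endothelial identity, was higher by 0.61 (SE 0.17, limma adjusted p = 0.0362). The median of the 29 genes was -0.11 against 0.01 over all genes, and the genes named were chosen because they were called. As for Tek, most HFD-LFD and LFD tumors were scanned in different sessions. With session as a block 0.669% of all genes were called in this comparison, and these genes were not read singly under it.

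Within HFD, 2 genes of the hypoxia list were higher in early tumors, Ankrd37 at 1.68 (SE 0.40, limma adjusted p = 0.0111) and the glycolytic enzyme Pgk1 at 1.25 (SE 0.31, limma adjusted p = 0.0152), where 13% of all genes were called and 5.75% were higher. The 2 of 20 is near that share, and both were named because they were called. The median of the 20 hypoxia genes was 0.07 within HFD and -0.57 within HFD-LFD, where 0 were called.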
